A study of Homo sapiens with 9 samples.

Results

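Transcripts of 8 genes of the SIX-, EYA- and DACH-families (SIX2, SIX4, SIX5, EYA1, EYA2, EYA3, EYA4 and DACH1) were followed through acute loss of the transcription factor SOX9. The genes were taken by name from the 18970 gene symbols counted, by a rule that holds no measured value, with earlier results of these data known, and include 3 SIX-family and 4 EYA genes. The cells were cranial neural crest cells (CNCCs), the embryonic precursors of much of the facial skeleton, made from human embryonic stem cells of the established H9 line. In these cells both alleles of SOX9 carried a tag of FKBP12-F36V, mNeonGreen and V5, which lets the small molecule dTAGV-1 bring the protein to a ubiquitin ligase for degradation. Cells received vehicle (0h) or 500 nM dTAGV-1 for 3h or 24h, and the labels give a relative SOX9 level of 100% at 0h and 0% at 3h and 24h. All cells were exposed to 100 uM 4-thiouridine for 2 h before harvest, so that labelling began 1 h into the 3h treatment and 22 h into the 24h treatment, and all grew in medium with BMP2 and CHIR-99021. Each group held the same 3 cultures: clone S9CC13 in differentiation batch R6 (S9CC13_R6) and clone S9CC47 in batches R5 and R6 (S9CC47_R5 and S9CC47_R6). The model thus rests on 2 clones of 1 line, each combination of clone and batch is a single culture, and untagged cells given dTAGV-1 were not analysed here.

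SIX-family proteins are homeodomain transcription factors related to sine oculis of the fly. Many of them bind DNA weakly as activators on their own and recruit EYA proteins, which have no DNA-binding domain of their own but bring a transactivation domain and a protein phosphatase domain. DACH1 belongs to the SKI-related co-repressor family and is best known as the nuclear partner that completes the PAX-SIX-EYA-DACH circuit of eye, ear, kidney and pharyngeal arch development. In mammals EYA1 is known for its part in craniofacial and otic development.

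SLAM-seq marks RNA made during the labelling within total RNA but does not fully separate it from older RNA. Reads of the 3′ end of transcripts that carry a T>C conversion (T>C reads) were taken to come from RNA that took up 4-thiouridine. Total reads count all RNA of the gene. All samples were labelled, so T>C reads that arise without the label were not measured. Libraries held 16955633 to 28782678 total reads, of which 15.9% to 21.3% were T>C reads, with the lowest share in S9CC13_R6 at 3h. Normalised reads are counts divided by the size factor of the library, which sets libraries of unequal depth on one scale. SOX9 RNA itself, which the degron does not target, rose in T>C reads by 0.77 ± 0.08 (log2, SE) at 3h and by 1.15 ± 0.08 at 24h. Of 15 markers of cranial neural crest, 14 reached 1 CPM (reads relative to the library total) in 3 or more libraries of total reads, whereas none of 7 markers of cranial placode and otic cells did. Of 7 markers each, 5 of neurons, 4 of nephron progenitors (EYA1 among them), 2 of neural progenitors and 2 of skeletal muscle also did. Summed CPM of the crest markers, which include SOX9, lay between 5048 and 5153 at 0h and between 7256 and 7928 at 24h. Summed CPM of 7 Schwann cell or melanocyte markers lay between 14.2 and 20.0 at 0h and between 3.16 and 4.58 at 24h (4 of 7 reached 1 CPM, none was at 0 throughout). That of 7 pluripotency markers lay between 350.1 and 414 at 0h and between 281.5 and 306 at 24h. Of these 7 only 2, LIN28A and DPPA4, reached 1 CPM in 3 or more libraries. POU5F1, NANOG, ZFP42 and PRDM14 did not, and TDGF1 was at 0. The part of these marker sums in the results below was not tested. In bulk RNA, fewer cells that express a gene and less RNA per cell cannot be told apart.

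All 8 genes passed the filter of 1 CPM in 3 or more of the 9 libraries in both tables, so none was without reads, but EYA2 passed only narrowly. SIX2, SIX4, SIX5, EYA1, EYA3, EYA4 and DACH1 reached 1 CPM in 9 of 9 libraries, counting T>C reads or total reads. For T>C reads EYA2 did so in 6 libraries, of which 3 were 0h, 2 were 3h and 1 was 24h, and for total reads in 5. Counts of EYA2 ran from 1 to 12 T>C reads and from 5 to 41 total reads.

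After 3h of SOX9 loss, 1 of the 8 genes, DACH1, was called lower in T>C reads (DESeq2 Wald test, Benjamini-Hochberg adjusted p under 0.1) and none higher, against 1.79% of the 12037 genes tested in that comparison. After 24h, 1 gene, EYA4, was called lower in T>C reads, against 4.98% of genes tested. In total reads no member was called at 3h (1.89% of 11710 genes tested were called; 1 of the 8 had an unadjusted p under 0.05, and edgeR called 0), and EYA4 was called lower at 24h (15.0% of genes tested). Between 3h and 24h no member was called in T>C reads (1.14% of genes tested were called) or in total reads (5.39%). In each of these comparisons 1 of the 8 genes had an unadjusted p under 0.05, and edgeR called 0. In T>C reads the 8 genes had a median log2 fold change of -0.12 after 3h and -0.11 after 24h, beside -0.01 and 0.00 over all genes tested.

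**Figure D1:**
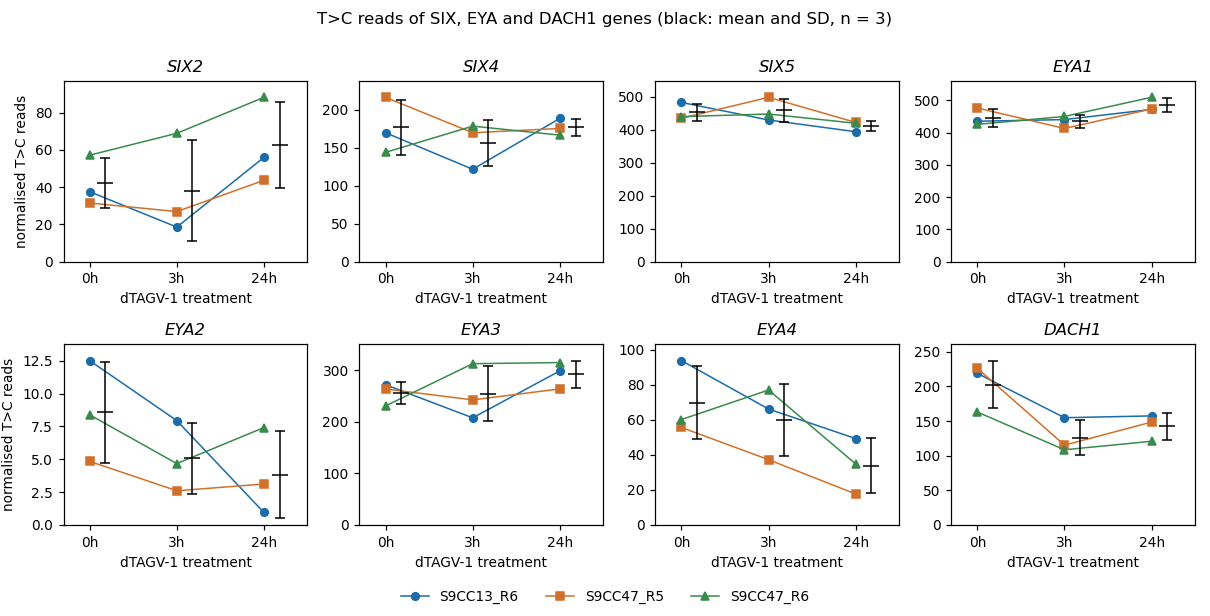
Normalised T>C reads (y axes, linear, each gene on its own scale) of the 8 genes at 0h, 3h and 24h of dTAGV-1; coloured symbols joined by lines are the 3 cultures, and black marks are the mean and SD (n = 3). DACH1 lies lower at 3h and 24h than at 0h in every culture, and EYA4 lies lower at 24h.

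Among the SIX-family genes, no member was called in any of the comparisons. SIX4 is a SIX-family factor of muscle and sensory precursors (chr14:60709539-60724351, hg38, minus strand). Its normalised T>C reads at 0h were 169.8 in S9CC13_R6, 216.5 in S9CC47_R5 and 144 in S9CC47_R6. By culture, again in this order, the 3h values were 121.7, 169.8 and 178.5 and the 24h values 188.7, 175.5 and 166.7. The 3 times overlapped, and the cultures did not move in 1 direction: 2 of 3 cultures had lower SIX4 after 3h, and 1 of 3 after 24h. The fitted log2 fold change in T>C reads was -0.12 (95% interval -0.50 to 0.26) at 3h and -0.07 (-0.47 to 0.32) at 24h.

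SIX5, a SIX-family factor whose gene (chr19:45764785-45769252, minus strand) neighbours the repeat expanded in myotonic dystrophy, had 430.0 to 498.9 normalised T>C reads at 3h. It had 435.3 to 483.4 at 0h and 394.4 to 422.7 at 24h. At 24h all 3 cultures thus lay below all 3 at 0h, but the difference was small and not called, with a log2 fold change of -0.14 ± 0.13 (SE, adjusted p = 0.738). Total reads of SIX5 overlapped, with means of 1425 ± 91.4 (0h), 1484 ± 206 (3h) and 1347 ± 9.47 (24h; SD, n = 3). The last exon of SIX5 overlaps a noncoding gene on the other strand, and whether counting used strand is not given in the sources used here.

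SIX2, the SIX-family factor known for maintaining nephron progenitors and for its part in cranial neural crest (chr2:45005182-45009452, minus strand), had few reads and differed between cultures. In S9CC13_R6 its normalised T>C reads were 37.5 with vehicle, 18.5 after 3h and 55.9 after 24h. At the same times they were 31.4, 26.9 and 43.6 in S9CC47_R5, and 57.1, 68.9 and 88.2 in S9CC47_R6. At 24h SIX2 was above its own 0h value in 3 of 3 cultures, although the groups overlapped because the cultures started from different levels. Within cultures the change from 0h to 24h, as log2 of normalised reads + 1, was 0.56, 0.46 and 0.62 in T>C reads and 0.97, 0.15 and 1.16 in total reads (S9CC13_R6, S9CC47_R5 and S9CC47_R6).

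The call on SIX2 depended on the terms of the fit. In the fit with batch and 1 surrogate variable, the log2 fold change at 24h was 0.11 ± 0.35 in T>C reads (adjusted p = 0.948) and 0.25 ± 0.28 in total reads (adjusted p = 0.631). With culture as a replicate block and no surrogate variable, it was 0.57 in T>C reads (adjusted p = 0.443) and 0.78 in total reads (adjusted p = 0.0746), which passed the threshold. The fold change was smaller in the fits with a surrogate variable: for total reads it was also 0.78 with batch alone (adjusted p = 0.293), and 0.32 with both the replicate block and a surrogate variable (adjusted p = 0.753). For 24h against 3h in total reads, the replicate block without a surrogate variable gave 0.99 (adjusted p = 0.0222) and with one 0.43 (adjusted p = 0.896). With a culture left out under the block and no surrogate variable, 24h against 0h ran from 0.57 to 1.08 and was called only without S9CC47_R5 (adjusted p = 0.0555), and 24h against 3h was not called (adjusted p from 0.133 to 0.684). The surrogate variable was highest, at 0.54 (T>C reads) and 0.59 (total reads), in S9CC47_R6 at 24h, the library with the highest SIX2 value, and lowest, at -0.71 and -0.67, in S9CC13_R6 at 3h, the library with the lowest. Their part in the SIX2 values was not tested.

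**Figure D2:**
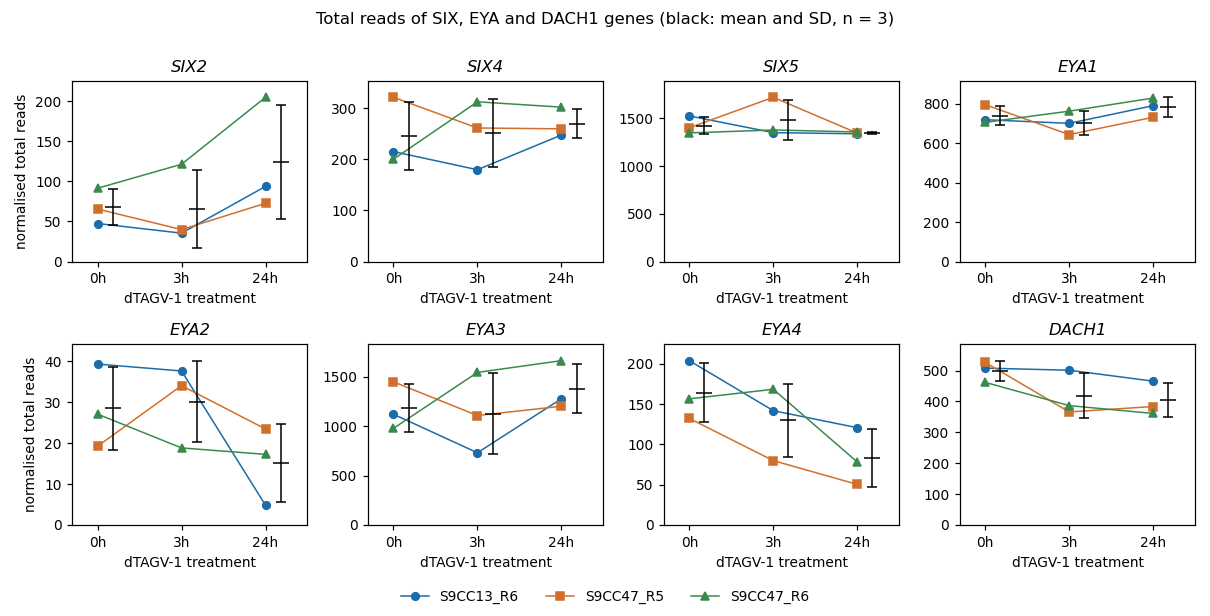
Normalised total reads (y axes, linear, each gene on its own scale) of the 8 genes at 0h, 3h and 24h; coloured symbols are the 3 cultures, black marks the mean and SD (n = 3). SIX2 is highest in S9CC47_R6 at all 3 times, and EYA4 at 24h lies below all 0h values.

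EYA1, the EYA coactivator mutated in branchio-oto-renal syndrome (chr8:71197433-71592025, minus strand), differed little between the times. Its normalised T>C reads in S9CC13_R6, S9CC47_R5 and S9CC47_R6 were 436, 476 and 426 without dTAGV-1, 441, 413 and 450.4 after 3h, and 472, 473.5 and 510 after 24h. The 24h values overlapped those at 0h but not those at 3h. The log2 fold change was -0.02 (95% interval -0.26 to 0.22) at 3h and 0.10 (-0.15 to 0.35) at 24h, so a change of 1 log2 unit in either direction lay outside both intervals. Noncoding genes on the other strand overlap the last exon of EYA1.

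EYA3, an EYA phosphatase with roles in DNA damage responses (chr1:27970344-28088637, minus strand), had means of 255 ± 21.8 (0h), 254 ± 53.5 (3h) and 292 ± 26.1 (24h) normalised T>C reads (SD, n = 3). The 3h values lay on both sides of those at 0h, at 208 in S9CC13_R6, 242.5 in S9CC47_R5 and 313 in S9CC47_R6. Its fitted log2 fold change after 3h was 0.04 ± 0.16 (SE) for T>C and 0.01 ± 0.11 for total reads, and after 24h it was 0.08 ± 0.16 and -0.02 ± 0.12.

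EYA2, an EYA coactivator of skeletal muscle and sensory development (chr20:46894624-47188844, plus strand), was too sparse for a firm statement. The T>C counts of S9CC13_R6, S9CC47_R5 and S9CC47_R6 were 12, 4 and 11 with vehicle, 6, 3 and 4 after 3h, and 1, 3 and 10 after 24h. Normalised T>C reads of each culture were fewer after 3h and after 24h than at 0h, while the groups overlapped. The 95% interval of the log2 fold change was -2.66 to 1.08 after 3h and -3.06 to 0.94 after 24h, so a change was not detectable at this depth.

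EYA4, the EYA coactivator known from inherited deafness and dilated cardiomyopathy (chr6:133240514-133532128, plus strand), fell by 1.11 on the log2 scale in T>C reads at 24h (SE 0.36, adjusted p = 0.0528). From 0h to 24h its normalised T>C reads went from 93.8 to 49.3 in S9CC13_R6, from 55.6 to 17.65 in S9CC47_R5 and from 60.2 to 34.8 in S9CC47_R6. Every 24h value lay below every 0h value. The 3h values were 66.15, 37.25 and 77.0, of which S9CC47_R6 lay above its 0h value and the other two below, and the groups overlapped. The log2 fold change at 3h was -0.24 (95% interval -0.89 to 0.40).

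Total reads of EYA4 moved in the same direction. By culture they were 204, 132 and 156.5 with vehicle, 142, 79.8 and 168 after 3h, and 121, 50.3 and 78.1 after 24h, and EYA4 fell by 1.02 at 24h (SE 0.26, adjusted p = 0.00175). Between 3h and 24h, total reads were lower in 3 of 3 cultures, with a log2 fold change of -0.64 ± 0.28 (adjusted p = 0.215). With the replicate block and no surrogate variable this difference passed the threshold, at -0.67 (adjusted p = 0.0841), but not with both (-1.05, adjusted p = 0.115) or with any 1 culture left out under the block (-0.91 to -0.42, adjusted p from 0.311 to 0.571). The T>C call at 24h did not hold without covariates (-1.04, adjusted p = 0.11) or when any 1 culture was left out (log2 fold changes from -1.58 to -0.81). The total call held with each culture left out under the replicate block (-1.20 to -0.87, adjusted p from 0.0705 to 0.0867). In the fits with a surrogate variable it did not (adjusted p from 0.265 to 1.0), with log2 fold changes of -1.63 to -0.79. The last exon of EYA4 overlaps TARID, a noncoding gene on the other strand.

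DACH1 (chr13:71437966-71867204, minus strand) fell by 0.77 in T>C reads at 3h (SE 0.20, adjusted p = 0.0149). From 0h to 3h its normalised T>C reads went from 219 to 155 in S9CC13_R6, from 226 to 115 in S9CC47_R5 and from 163 to 108.5 in S9CC47_R6. Every 3h value lay below every 0h value. At 24h they were 157, 148.5 and 121, again all below the 0h values, but the log2 fold change of -0.38 ± 0.21 was not called (adjusted p = 0.423). The difference between 24h and 3h was 0.38 ± 0.23 (adjusted p = 0.731), so no change between the times was shown.

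Total reads of DACH1 changed less clearly. Their range was 462 to 526 with vehicle, 366 to 501 after 3h and 361 to 466 after 24h; each culture lay below its own 0h value at both times, but the groups overlapped. The log2 fold change was -0.31 ± 0.14 at 3h (adjusted p = 0.4501) and -0.23 ± 0.14 at 24h (adjusted p = 0.356). The T>C call at 3h did not hold without the surrogate variable (-0.68, adjusted p = 0.152), without covariates (-0.68, adjusted p = 0.109), with only the 6 samples of the times compared (-0.78, adjusted p = 0.133) or with any 1 culture left out (-0.79 to -0.54). It held with culture as a replicate block without a surrogate variable (-0.69, adjusted p = 0.04997) and with one (-0.69, adjusted p = 0.0965).

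**Figure D3:**
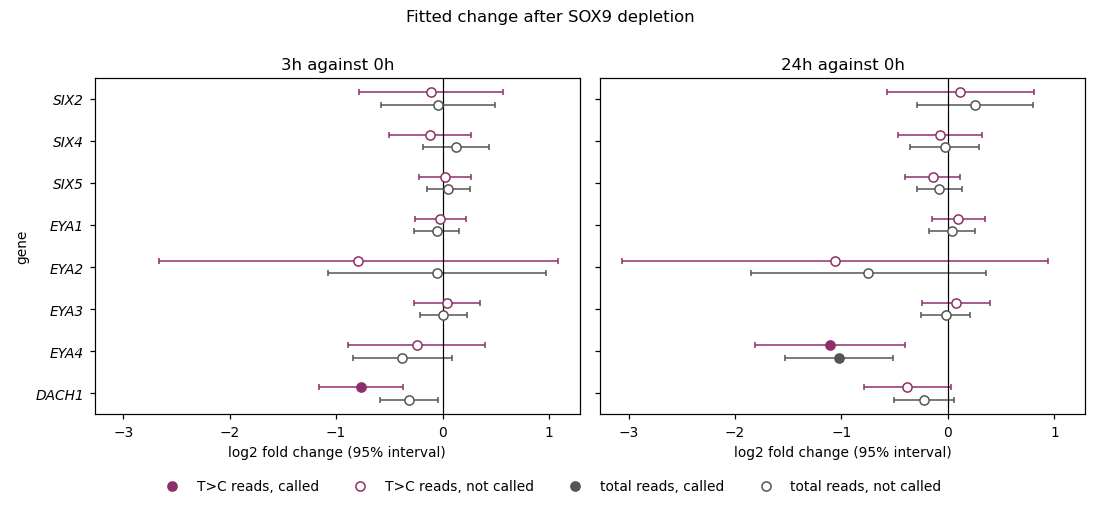
Fitted log2 fold change (x axes) of each gene at 3h (left) and 24h (right) against 0h, with 95% intervals as bars; filled symbols passed an adjusted p of 0.1, open ones did not. DACH1 is filled for T>C reads at 3h only, EYA4 for both T>C and total reads at 24h, and the EYA2 intervals are the widest.

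The promoters of the called genes are shown because SOX9 binds DNA through its HMG box. RefSeq promoters (GRCh38.p14, 250 bases before to 50 after the transcription start) were given for 5 of the 8 genes, namely SIX2, SIX4, EYA3, EYA4 and DACH1. They were searched on both strands for the core CAAAG or CAATG with A or T at both preceding positions, a string of 7 bases, with matches in capitals and overlapping matches joined. The DACH1 promoter lies at chr13:71867155-71867454 (minus strand) and the EYA4 promoter at chr6:133241107-133241406 (plus strand), both written 5′ to 3′ on the strand of the gene. The EYA4 stretch lies wholly inside the gene, downstream of its GENCODE start at 133240514, so sequence around that start was not searched.
DACH1: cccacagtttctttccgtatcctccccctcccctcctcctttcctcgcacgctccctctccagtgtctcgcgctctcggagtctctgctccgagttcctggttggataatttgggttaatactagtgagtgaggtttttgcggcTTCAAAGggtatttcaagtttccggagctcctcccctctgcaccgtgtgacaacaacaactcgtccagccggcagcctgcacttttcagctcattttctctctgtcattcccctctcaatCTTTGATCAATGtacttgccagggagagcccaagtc
EYA4: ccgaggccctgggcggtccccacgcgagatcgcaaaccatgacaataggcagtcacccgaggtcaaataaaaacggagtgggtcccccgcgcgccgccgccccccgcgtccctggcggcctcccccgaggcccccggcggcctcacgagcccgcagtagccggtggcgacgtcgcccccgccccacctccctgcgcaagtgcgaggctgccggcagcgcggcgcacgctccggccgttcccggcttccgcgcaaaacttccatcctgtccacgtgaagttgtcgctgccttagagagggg
The DACH1 promoter held 3 matches, of which 2 overlap on opposite strands, and the promoters of EYA4, SIX2, SIX4 and EYA3 held 0. Of all 35116 promoters in the same table, 20.4% held at least 1 match and 0.632% at least 3. A match is a string of letters and was not read as a binding site.

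The T>C share, T>C reads as a percentage of total reads, also differed among the genes. At 0h it was 73.8% ± 2.51 for SIX4, 63.7% ± 12.8 for SIX2 and 61.2% ± 2.46 for EYA1 (SD, n = 3), each above the 90th percentile of 53.7% over 11710 genes tested, whose median was 27.1%. It was 42.8% ± 3.18 for EYA4, 41.1% ± 4.89 for DACH1, 32.3% ± 1.39 for SIX5, 29.6% ± 2.58 for EYA2 and 22.3% ± 2.58 for EYA3. The share also depends on how many T positions the counted stretch holds, which was not corrected for here, so it ranks genes only as counted.

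For DACH1 the share was 41.8%, 45.6% and 35.9% at 0h and 25.9%, 30.2% and 28.4% at 3h (S9CC13_R6, S9CC47_R5 and S9CC47_R6), and 34.4%, 41.7% and 37.1% at 24h. Its 3h values lay below all values at the other times. For SIX4 it was 76.5%, 71.6% and 73.3% at 0h and 56.8%, 62.4% and 57.7% at 3h, also without overlap, and 77.7%, 72.8% and 61.3% at 24h. The exact 95% binomial intervals of SIX4 with vehicle and after 3h, for counting error only, were 70.2% to 82.1% and 48.8% to 64.5% in S9CC13_R6 and 67.4% to 78.6% and 51.5% to 63.8% in S9CC47_R6. In S9CC47_R5 they overlapped, at 65.6% to 77.1% and 56.8% to 67.8%.

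Of the 8 genes, 3 (SIX4, EYA2 and DACH1) had a T>C share at 3h below all 0h values, against 12.4% of genes with a share in every library, and 0 did at 24h (2.83% of genes). The median gene tested moved by -2.01 percentage points at 3h and 0.989 at 24h, while SIX4 moved by -14.8 and DACH1 by -12.9 points at 3h. These differences start from unlike levels, since the share at 0h was 73.8% for SIX4 and 41.1% for DACH1 against a median of 27.1%. EYA2 moved by -13.0 points on at most 12 T>C reads per library. S9CC13_R6 at 3h had the lowest T>C share of any whole library (15.9%), and the part of this in the values was not tested. The share of EYA4 stayed at 43.3% ± 3.76 at 3h and 42.95% ± 5.96 at 24h, as T>C and total reads fell together.

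**Figure D4:**
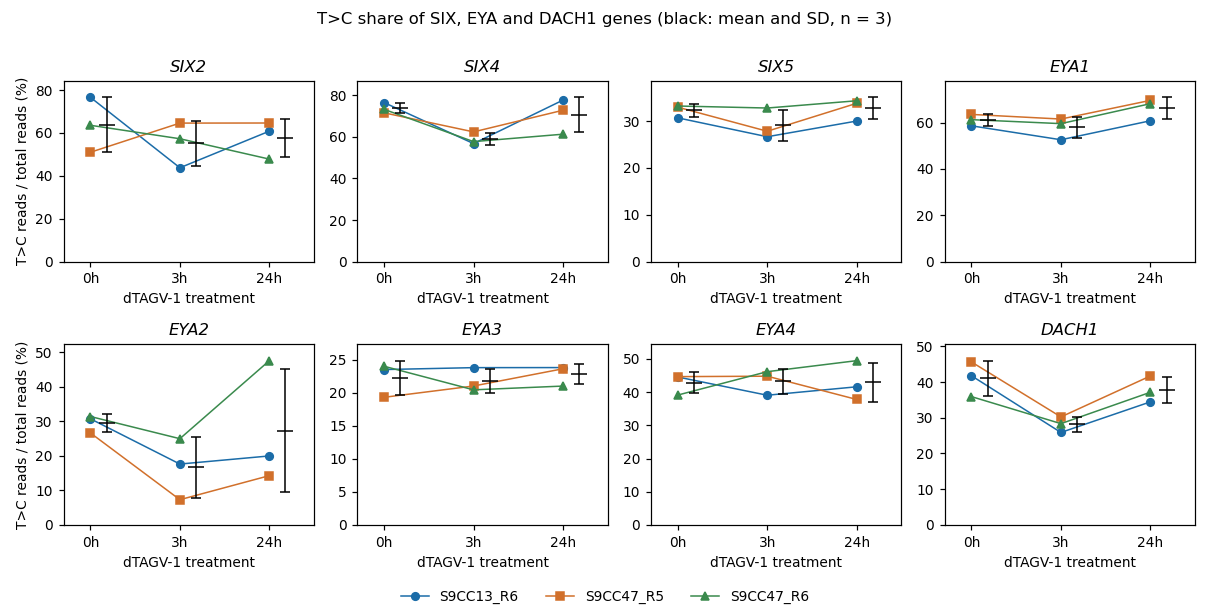
T>C reads as a percentage of total reads (y axes, linear, each gene on its own scale) of the 8 genes at 0h, 3h and 24h; coloured symbols are the 3 cultures, black marks the mean and SD (n = 3). SIX4, SIX5, EYA1, EYA2 and DACH1 are lower at 3h than at 0h in every culture, without overlap for SIX4, EYA2 and DACH1, whereas EYA4 keeps its share.

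In T>C reads, the 3h and 0h values did not overlap for 1 of the 8 genes, DACH1, against 11.3% of genes tested, and the 24h and 0h values for 3, SIX5, EYA4 and DACH1, against 22.5%. In total reads they did not overlap for 0 genes at 3h (8.44% of genes tested) and for EYA4 at 24h (28.7%). Cultures were compared over their 3 times as a description, since each is a single culture. In batch R6, clone S9CC13 and clone S9CC47 did not overlap for SIX2 in T>C reads (10.1% of genes tested) and for DACH1 in total reads (9.83%), where S9CC13_R6 held 465.6 to 508 and S9CC47_R6 361 to 462 normalised reads. In clone S9CC47, batches R5 and R6 did not overlap for SIX2, either in T>C reads (10.2% of genes tested) or in total reads (10.6%). SIX2 averaged 2.10 times more T>C reads and 2.35 times more total reads in S9CC47_R6 than in S9CC47_R5.

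Of 50 further genes of the PAX-SIX-EYA-DACH network (partners, co-repressors and targets), 33 were tested in T>C reads. The others, including SIX3, SIX6, DACH2, PAX1, PAX2, PAX6 and PAX8, were below the filter. In T>C reads, 2 of the 33 fell and 2 rose at 3h (1.79% of all genes tested were called), and 1 fell and 5 rose at 24h (4.98%). In total reads 27 were tested, of which 2 fell and 3 rose at 3h (1.89% of all genes tested) and 3 fell and 7 rose at 24h (15.0%). The median log2 fold change of the 33 genes was 0.08 at 3h and 0.18 at 24h, beside -0.01 and 0.00 over all genes tested.

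The network genes called in T>C reads are given with their T>C changes. Among Groucho co-repressors, which SIX-family proteins can recruit, TLE1 fell by 0.50 ± 0.14 (log2, SE) and TLE3 by 0.67 ± 0.18 at 3h, whereas TLE4 rose by 0.48 ± 0.14 at 24h. SKI and SKIL, which like DACH1 hold a SKI-related domain, rose by 0.52 ± 0.14 and 0.57 ± 0.18 at 24h. PAX7 rose by 0.45 ± 0.14 at 3h and PAX3 by 0.51 ± 0.15 at 24h, both paired-box factors of the neural crest. The co-repressors or partners SNW1, TLE5, NCOR1 and HDAC3 were tested and not called at any time in T>C reads. The factor PAX9 was not called either, but it held only 0 to 14 T>C reads per library. Its test therefore cannot decide whether PAX9 changed. BMP4, a secreted growth factor, rose by 0.70 ± 0.12 at 3h and 0.69 ± 0.12 at 24h. SALL4, a zinc finger factor, fell by 0.23 ± 0.08 at 24h (adjusted p = 0.0983), and MYC rose by 1.44 ± 0.38 between 3h and 24h.

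The genes whose T>C pattern over the 9 samples was most like that of each member were ranked by Pearson's r of log2 normalised reads + 1, among 8676 genes with a mean of at least 50, as a description. They were PLPP3 (0.93) and DPYSL4 (0.90) for DACH1, VEZT (0.95) and TBC1D4 (0.94) for EYA4, WDR33 (0.95) for EYA1, and TMEM260 (0.98) and DAP3 (0.96) for EYA3. For SIX4 they were SMIM19 (0.96) and POFUT2 (0.95), and for SIX5 CHMP3 (0.92) and DDAH2 (0.91). The samples share cultures and library depth, and with so many genes compared high values are easily reached. SIX2 and EYA2 were below the mean of 50.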

How the data were processed

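SLAM-seq was measured in 9 samples, 3 cultures at 3 times. The authors trimmed read 1 with skewer, mapped and counted it with slamdunk and merged counts per gene; they deposited raw counts of total and T>C reads in 2 tables, on hg38 per the processing notes. The annotation of counted 3′ stretches is not given in the sources used here, and no molecular identifiers are stated. Gene positions came from GENCODE release 44. Protein-coding genes at 1 CPM or more in at least 3 samples were fitted with DESeq2 (version 1.42.0, R 4.3.3), with batch, time and 1 surrogate variable (sva 3.50.0), independent filtering off, and called at an adjusted p of 0.1. Intervals are 95%. Nothing in the labels says that samples of a group came from separate thaws. In the fit with batch and 1 surrogate variable, p-values measure the spread between these cultures left after both terms, with no term for culture. Culture pairs the samples, since the titles give the same clone and batch; deviations from group means correlated within cultures at 0.131 on average for T>C reads (0.017 to 0.286 over 9 pairs) and 0.273 for total reads (-0.057 to 0.606). Alternatives used edgeR (4.0.16), other normalisation, filters, covariates, thresholds and left-out cultures. The fitting steps were tested on simulated data. Named genes were the 8 members, SOX9, network genes called in T>C reads and up to 2 genes most like each member; some of the genes so chosen are not reported here. The members and lists were chosen with earlier results of these data known.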

Additional observations from a re-analysis of the deposited data

How the results depend on the processing

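Counts of members called were recomputed under each alternative listed in the methods. For T>C reads at 3h the count of 1 (DACH1) became 0 without the surrogate variable, without covariates and with only the 6 samples compared, and was 0 to 0 with a culture left out. For T>C reads at 24h the count of 1 (EYA4) became 0 without covariates and at an adjusted p under 0.05, and was 0 to 0 with a culture left out. For total reads at 24h the count of 1 (EYA4) became 2 (EYA4 and SIX2) with culture as a replicate block and no surrogate variable, stayed at 1 with both, and ran from 0 to 2 with a culture left out. For 24h against 3h in total reads the count of 0 became 2 (SIX2 and EYA4) with the replicate block and no surrogate variable, and stayed at 0 with both; the block changed no other call. In the fits with a culture left out and a surrogate variable, few residual degrees of freedom remained; leaving out each culture under the replicate block was added after seeing the data. Of 837 recomputed log2 fold changes, 813 kept their status as called or not called, and most of these were called in neither fit. A call was lost in 20 and gained in 4. DACH1 in T>C reads at 3h lost its call in 9 of 18 alternatives. At 24h EYA4 lost it in 8 of 18 for T>C reads and 3 of 17 for total reads. Of the values called in neither fit 98 changed sign, and no called value did. The T>C share of EYA2 at 24h minus 0h turned from -2.32 percentage points to 1.98 T>C reads per 100 unconverted reads. Reads were fewest for EYA2 (1 to 12 T>C reads) and SIX2 (14 to 119), which limits both.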
